A study of Caenorhabditis elegans with 8 samples.

Results

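Cuticle collagens whose gene names start with col- were followed in whole young adult Caenorhabditis elegans of 2 strains, N2 and HC125. They were chosen by name alone, which gave 157 of the 20541 genes in each of 2 deposited tables. The worm's epidermis secretes these short triple-helical proteins, which are trimmed, cross-linked and laid down outside the animal as its cuticle. A new cuticle is made at each moult, and many collagen genes are switched on in a pulse around a moult and off afterwards, while others are used mainly in the adult. A few genes of this name have other roles, such as col-99, which encodes a collagen that spans the cell membrane.

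N2 is the wild type. The series design gives Psid-1::gfp worms (green fluorescent protein behind the promoter of sid-1) as the other group, and HC125 is read here as that strain. Both strains were grown to young adults from a timed egg lay. Polyadenylated RNA of each strain was sequenced in 4 libraries, 2 with paired-end reads that carry no strand information (replicates 1 and 2) and 2 with stranded single-end reads (replicates 3 and 4). Both sets also differ in library kit, so kit, read layout and worm batch cannot be told apart between them. Each table holds 1 value per gene and strain, the authors' pooled FPKM (fragments per kilobase of transcript, scaled to mapped depth), so the spread between libraries is not seen and the depth is unknown. Values below are FPKM, written as N2 against HC125. The gene sid-1 was at 31.9 against 2.11 FPKM in the paired-end table and at 12.9 against 0.818 FPKM in the single-end table. The sample labels give no expected level of sid-1, so these values do not settle which strain HC125 is. In whole animals, fewer cells of a type and less RNA per cell cannot be told apart. Intervals of 95% rest on a standard error worked back from the test statistic of the authors.

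The col genes ran from nothing listed to 7383 FPKM, with a gap near the top. Grouped by the mean of their 4 values, 25 abundant genes stood at 100 FPKM or more, 65 middle genes from 1 to under 100 FPKM, and 67 low genes below 1 FPKM. The least abundant of the first group had a mean of 150.3 FPKM and the highest of the second a mean of 51.7 FPKM, with no member between them. At the lower limit the nearest means were 1.01 and 0.971 FPKM, so that limit cuts through a continuous range. With paired-end reads the abundant genes held 98.5% of the family's summed FPKM in N2 against 97.8% in HC125, and with single-end reads 99.2% against 98.96%. The whole family held 3.10% of all FPKM in N2 against 2.98% in HC125, and 5.11% against 4.51% in the single-end table. These totals count some yolk genes with too many reads at 0. With single-end reads that held for vit-3, vit-4 and vit-5 in N2 alone, so the 2 totals differ in what they hold.

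**Figure D1:**
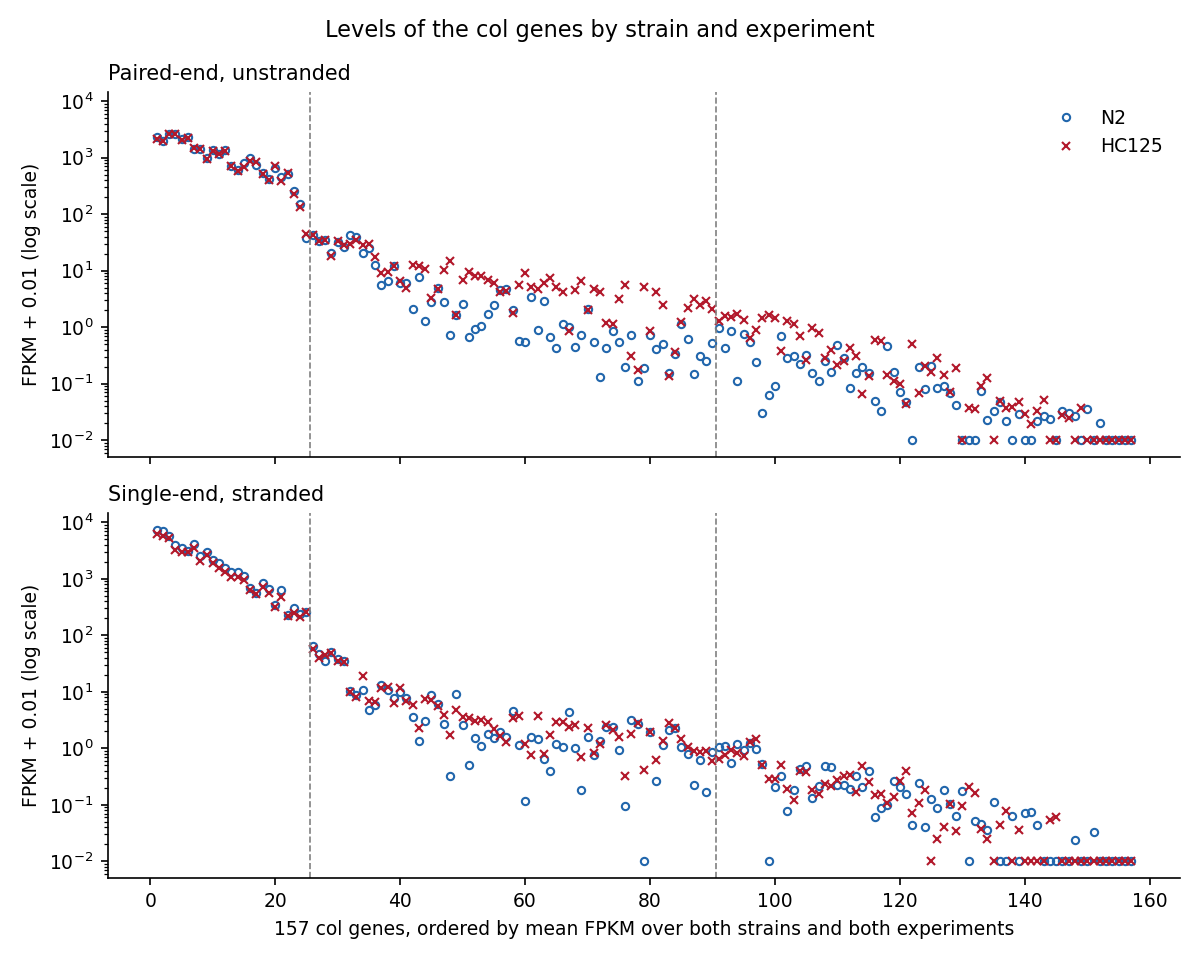
FPKM + 0.01 on a log axis for each of the 157 col genes, in N2 (circles) and HC125 (crosses), with paired-end reads (top) and single-end reads (bottom); dashed lines mark mean levels of 100 and 1 FPKM. The symbols of the 25 abundant genes nearly overlap in the paired-end panel, while many crosses lie above the circles in the middle group.

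The abundant group was led by col-119 and col-122. With paired-end reads col-119 was at 2347 against 2145 FPKM, and with single-end reads at 7383 against 6108 FPKM. For col-122 the levels were 1984 against 1939 FPKM, and 6962 against 5781 FPKM. The order of these genes differed between the tables: col-124 ranked 1 and col-119 ranked 4 with paired-end reads, while col-119 ranked 1 and col-124 ranked 5 with single-end reads. The 8 highest genes by mean also include col-140, col-181, col-20, col-178 and col-106. These 8 lay between 1397 and 2641 FPKM in the paired-end table, with ratios of HC125 over N2 from 0.914 to 1.02. The 95% interval of the ratio of col-119 ran from 0.249 to 3.35 there. The listed loci of col-119, col-122 and col-124 each hold 1 other gene, and each overlaps a coding gene on the opposite strand.

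The adult label was set beside a few members known from the literature, which is no full check of stage. Others of that list, such as col-7 and col-17, are given below. The adult-specific collagen gene col-19 was at 1365 against 1321 FPKM, and at 1561 against 1343 FPKM. Its ratio was 0.968 (95% interval 0.379 to 2.47) with paired-end and 0.860 (0.609 to 1.22) with single-end reads. By contrast col-2, a collagen gene of the dauer larva, was at 0.0612 against 0.0867 FPKM, and at 0.197 against 0.252 FPKM. Also near silent were col-40, which did not pass 0.316 FPKM in any value, and col-36, listed at 0 except for 0.0498 FPKM in HC125 with single-end reads.

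The abundant genes had close levels in both strains with paired-end reads and were slightly lower in HC125 with single-end reads. With paired-end reads 19 of the 25 were lower in HC125, against 58.3% of all tested genes, and the ratios ran from 0.837 to 1.199. Their median log2(FPKM + 1) ratio was -0.05, beside -0.03 for all tested genes and 0.001 for all genes of 100 FPKM or more, of which 49.9% were lower. With single-end reads 24 of the 25 were lower, against 60% of all tested genes, and the ratios ran from 0.744 to 1.00. Their median was -0.24, beside -0.04 for all tested genes and -0.03 for all genes of 100 FPKM or more. No abundant gene had a q of 0.05 or less in either of the authors' deposited tables. Among all genes of 100 FPKM or more, 0 of 1693 tested were called with paired-end and 1 of 1690 with single-end reads, so calls were rare at this level in general. Summed over the group, HC125 had 0.970 and 0.857 of the FPKM of N2.

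On the log2(FPKM + 1) scale the abundant gene farthest below equality in both tables was col-179, at 461 against 386 FPKM, and at 631 against 469 FPKM. In the authors' deposited tables col-179 had p = 0.397 with paired-end and p = 0.0145 with single-end reads, and no other abundant member had an unadjusted p under 0.05. Its listed locus also holds another gene. Next to it with single-end reads came col-124 (ratio 0.809), col-93 (0.811) and col-142 (0.814), and with paired-end reads col-143 (0.859) and col-159 (0.869) on the lower side. The exception in the single-end table was col-95, at 258.9 against 259.5 FPKM, which also had the highest ratio of the 25 with paired-end reads, at 37.6 against 45.1 FPKM. The median implied standard error of a log2 ratio in this group was 0.61 with paired-end and 0.26 with single-end reads, and at the adjusted threshold no difference of this size was called in a single gene.

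The col genes called different were all higher in HC125 and all called in the paired-end table alone, and their levels in N2 were low. With paired-end reads the authors tested 112 of the 157 col genes, and 10 of these were called higher at a q of 0.05 or less, where 0.179% of all tested genes were called higher. None was called lower, where the background was 0.0331%. An unadjusted p under 0.05 with the higher value in HC125 was found for 33 of the 112, against 0.926% of all tested genes, and none was lower at that p, against 0.351%. The 10 called genes lay between 0 and 2.10 FPKM in N2 and between 0.496 and 15.04 FPKM in HC125. The authors tested only genes with enough reads, so a near-silent gene could enter the test through its level in HC125 alone. Over all 157 genes with or without a test, 99 were higher in HC125 and 50 lower with paired-end reads, while 39.6% of all listed genes were higher.

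The widest ratios among the called genes were those of col-17 and col-73. With paired-end reads col-17 was at 0.186 against 5.51 FPKM, a ratio of 29.6 (95% interval 6.38 to 138). With single-end reads it was at 0.0841 against 0.319 FPKM and was not tested. For col-73 the levels were 0.724 against 15.04 FPKM, and 0.314 against 1.74 FPKM, which gives ratios of 20.8 (5.78 to 74.7) and 5.55 (0.919 to 33.5). In the authors' deposited tables col-73 had p = 5e-05 and p = 0.0345. HC125 was the higher strain in both tables for both genes, by less with single-end reads.

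Ratios over 10 were also seen for col-175 and col-161. The level of col-175 was 0.527 against 9.10 FPKM, and 0.107 against 1.19 FPKM, a ratio of 17.3 (4.72 to 63.3) and 11.1 (1.43 to 86.0). That of col-161 was 0.671 against 9.40 FPKM, and 0.493 against 3.43 FPKM, a ratio of 14.01 (4.69 to 41.8) and 6.96 (1.54 to 31.4). With single-end reads the authors' deposited table gives p = 0.0107 for col-161, the smallest of any col gene there, and p = 0.0833 for col-175.

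The remaining calls with a ratio were higher in HC125 by 6.08 to 12.3 times with paired-end reads. They were col-162 (0.416 against 5.11 FPKM), col-63 (0.664 against 7.49 FPKM), col-77 (1.26 against 10.6 FPKM), col-138 (1.03 against 8.07 FPKM) and col-38 (2.10 against 12.7 FPKM). With single-end reads the ratio was 2.49 for col-162, 4.33 for col-63, 2.51 for col-77, 3.01 for col-138 and 1.59 for col-38. Of the 10, only col-138 overlaps a coding gene on the opposite strand. The last call, col-54, was listed at 0 in N2 against 0.496 FPKM in HC125, so no fold is given, and it was not tested with single-end reads. All 10 had p = 5e-05 in the authors' deposited paired-end table, the smallest p listed there, so the p does not rank them.

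**Figure D2:**
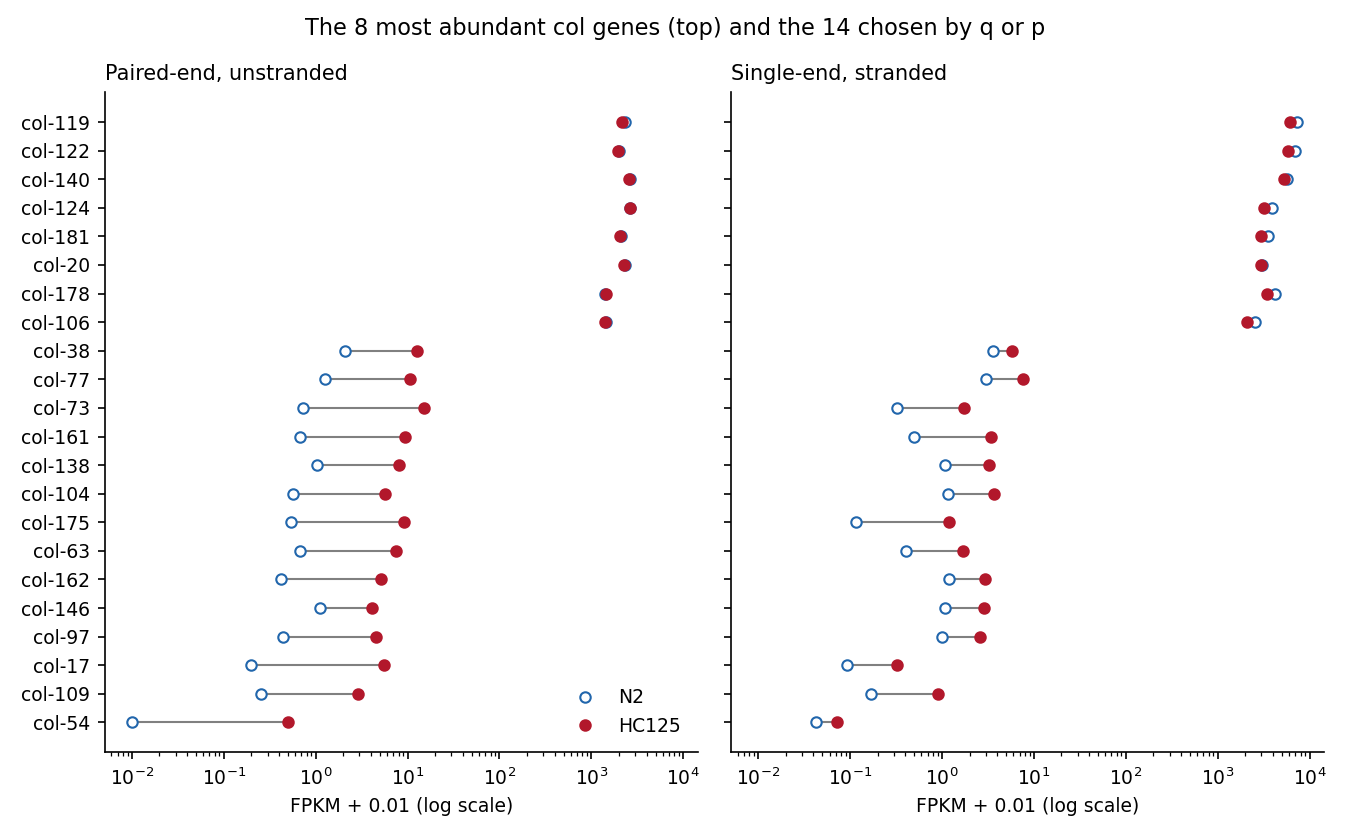
FPKM + 0.01 on a log axis in N2 (open circles) and HC125 (filled circles) for the 8 most abundant col genes and for the 14 with a q of 0.05 or less with paired-end reads or an unadjusted p under 0.05 in both tables; panels are the paired-end and single-end tables. In all 14 the HC125 value lies above that of N2 in both panels, with shorter lines in the single-end panel, and the symbols of the 8 abundant genes nearly overlap.

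With single-end reads no col gene was called among the 101 tested at a q of 0.05 or less, where 0.122% of all tested genes were called in either direction. At an unadjusted p under 0.05, 10 col genes were higher in HC125 and 1 lower in the authors' deposited table, against backgrounds of 1.22% and 1.16%. The 10 were all middle genes, and the lower one was col-179. In all, 46 of the 101 were higher in HC125, against 40% of all tested genes. Of the 8 paired-end calls that were tested here, every one was higher in HC125, and 5 had an unadjusted p under 0.05. All 8 had a smaller ratio than with paired-end reads, and their median ratio was 11.8 with paired-end and 3.67 with single-end reads. These 8 were chosen by their paired-end values, which by itself favours smaller ratios in the other table. The drop is therefore no measure of a difference between the tables.

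Across both tables, 9 col genes were higher in HC125 at an unadjusted p under 0.05 in each, against a background of 0.178% of the genes tested in both. None was lower, against 0.116%. Besides 5 of the called genes the 9 were col-97, col-104, col-109 and col-146. The level of col-104 was 0.558 against 5.61 FPKM, and 1.15 against 3.65 FPKM. For col-97, whose locus holds another gene, it was 0.434 against 4.54 FPKM, and 1.00 against 2.60 FPKM. The gene col-109 stood at 0.245 against 2.85 FPKM, and at 0.161 against 0.892 FPKM. The ratios of these 3 lay between 10.1 and 11.6 with paired-end reads and between 2.60 and 5.55 with single-end reads. The ratio of col-146 moved least, from 3.70 to 2.69, at 1.12 against 4.13 FPKM, and at 1.06 against 2.85 FPKM. Joining the p-values of both tables by Stouffer's method, adjusted over the 12954 genes tested in both, called 11 col genes higher, against a background of 0.185%. They were 8 of the 10 calls with col-97, col-104 and col-109, without col-146.

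Grouped by mean level, the tested middle and low genes had higher paired-end ratios than the abundant genes. Of the 63 middle genes tested with paired-end reads, 51 were higher in HC125, against 41.7% of all tested genes, and their median log2(FPKM + 1) ratio was 0.65, beside -0.04 for all tested genes of the same level. Inside the middle group, a limit of 10 FPKM chosen after the values were seen parted the family again. The 11 genes at a mean of 10 FPKM or more had a median ratio of HC125 over N2 of 1.02 with paired-end and 0.956 with single-end reads. Of the 54 genes below it, 52 were tested in each table, and their median ratio was 3.72 with paired-end and 1.37 with single-end reads. HC125 was higher in 44 of these 52 with paired-end reads and in 36 with single-end reads.

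A gene raised in HC125 also has a raised mean, in either table. The groups were therefore formed again from the N2 level in the other table alone, with every member kept, tested or not; this grouping was added after the values were seen. The paired-end median log2(FPKM + 1) ratio was then -0.05 for 25 abundant, 0.20 for 53 middle and 0.04 for 79 low genes, beside 0.65 for the 63 tested middle genes above. HC125 was higher in 40 of the 53 middle genes, or 75.5%, where 36.3% of other genes of that level were higher. It was also higher in 53 of the 79 low genes, or 67.1%, where the share of other genes was 40.8%. Of the 10 calls, 4 were then middle and 6 low genes. The single-end median was -0.25 for 24 abundant, 0.00 for 37 middle and 0.02 for 96 low genes, so the single-end median of the middle group moved with how it was formed. HC125 was higher there in none of the 24 abundant genes, where 41.2% of other genes were. It was higher in 19 of the 37 middle genes, or 51.4%, where 40.6% of other genes were. Of the 96 low genes 51 were higher, or 53.1%, where the share of other genes was 32.6%. With paired-end reads, then, the abundant genes lay near equality and the less expressed members more often above it, under both groupings.

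**Figure D3:**
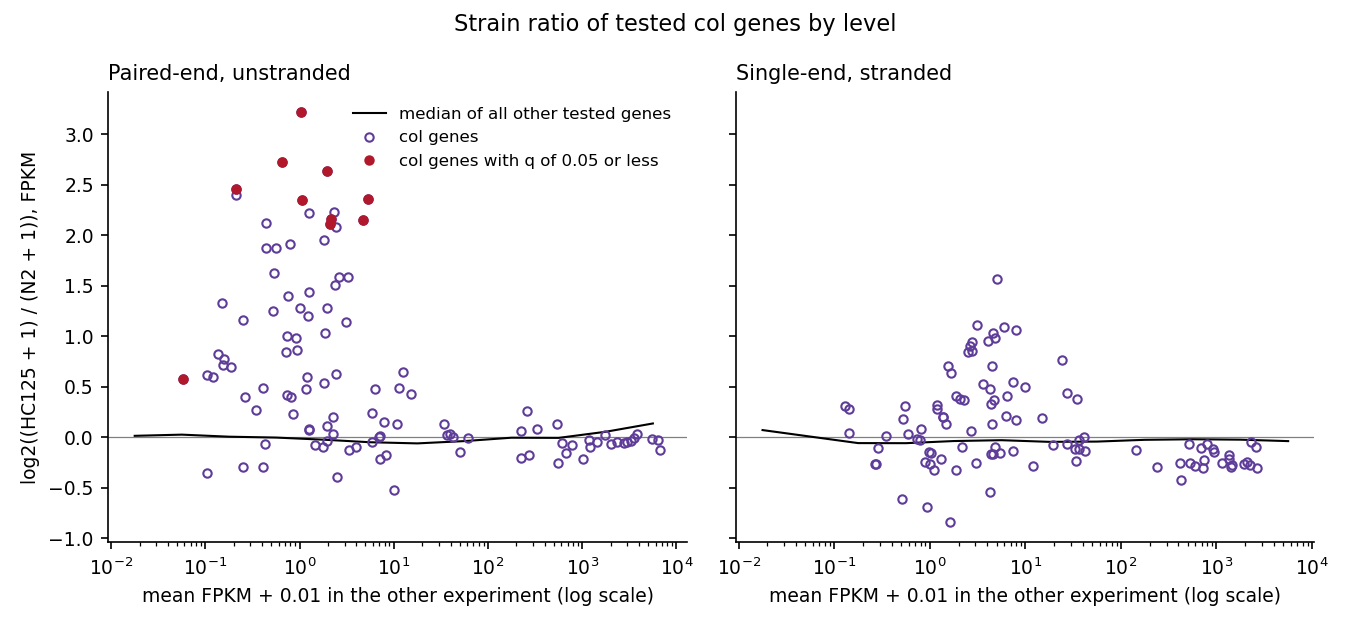
Strain ratio, log2((HC125 + 1)/(N2 + 1)) of FPKM, of the tested col genes against their mean FPKM + 0.01 over both strains in the other table (log axis), with the median of all other tested genes in bins of level as a black line. In the paired-end panel the high ratios lie below about 10 FPKM and the called genes (filled) reach 3.22; in the single-end panel the points above 100 FPKM lie mostly below the line.

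Most low genes were out of reach of a test. Of the 67, the authors tested 24 with paired-end and 13 with single-end reads, and 5 genes (col-78, col-126, col-127, col-164 and col-171) were listed at 0 throughout. With paired-end reads 20 of the 24 were higher in HC125, against 52.6% of all tested genes of that level. Their median log2(FPKM + 1) ratio was 0.59, beside 0.01. With single-end reads 5 of the 13 were higher, against 42.9%, and the median was -0.11, beside -0.05. Over all 67, tested or not, 41 were higher and 18 lower in HC125 with paired-end reads, with a median log2(FPKM + 1) ratio of 0.03. With single-end reads 27 were higher and 29 lower, with a median of 0.00. Values below 1 FPKM rest on few reads, and the pseudocount of 1 shrinks their ratios.

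Several members of a few FPKM had close values in both strains. The gene col-34 was at 5.91 against 6.59 FPKM, and at 10.03 against 11.7 FPKM. The membrane collagen gene col-99 was at 1.98 against 1.79 FPKM, and at 4.49 against 3.38 FPKM, with ratios of 0.903 (0.363 to 2.25) and 0.752 (0.365 to 1.55). Others had a higher value in HC125 without passing the test. The gene col-144 was at 6.51 against 9.54 FPKM, and at 10.7 against 12.1 FPKM. The gene col-7 was at 2.49 against 6.14 FPKM, and at 1.54 against 2.18 FPKM. In col-62 and col-10 the tables differed in direction, at 3.43 against 5.16 FPKM and then 1.56 against 0.762 FPKM for col-62, and at 5.52 against 9.20 FPKM and then 13.1 against 11.8 FPKM for col-10.

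Known from work on lifespan, col-120 was at 0.394 against 4.12 FPKM, and at 0.253 against 0.615 FPKM. Its paired-end ratio was 10.4 (2.68 to 40.7), and in the authors' deposited table it had p = 0.0005 and q = 0.164, so it was not called. The neighbouring near copies col-12 and col-13 were at 7.85 against 11.8 FPKM and 2.90 against 5.997 FPKM with paired-end reads. With single-end reads they were at 1.32 against 2.28 FPKM and 0.624 against 0.782 FPKM. Reads can be shared within such a pair, so the split between them is uncertain.

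Ratios in one table went with ratios in the other, although their sizes differed. Over the 97 col genes tested in both, Spearman's rho of the log2(FPKM + 1) ratios was 0.702 and Pearson's r 0.785. Over all 12954 genes tested in both, rho was 0.0888. It was 0.772 within 61 middle and 0.35 within 25 abundant col genes. These correlations are across genes, which share libraries and are not independent, so no p is given. Of the 97, 41 were higher in HC125 in both tables, against 17.5% of all genes tested in both, and 31 were lower in both, against 37.6%. A further 23 were higher with paired-end and lower with single-end reads, and 2 the reverse.

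A z test of the paired-end minus the single-end log2 ratio, on the implied errors and adjusted by the Benjamini-Hochberg method over 12921 genes, found a difference for no col gene, where the background was 0.00774%. At an unadjusted p under 0.05, 3 of the 97 col genes differed, all with the larger ratio in the paired-end table, beside 0.317% of all genes. They were col-38 (difference 1.93 ± 0.97, implied SE), col-60 (3.01 ± 1.33) and col-65 (4.55 ± 1.69), of which col-60 and col-65 are named after their values were seen. A call in the paired-end table is therefore not shown to be particular to it.

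**Figure D4:**
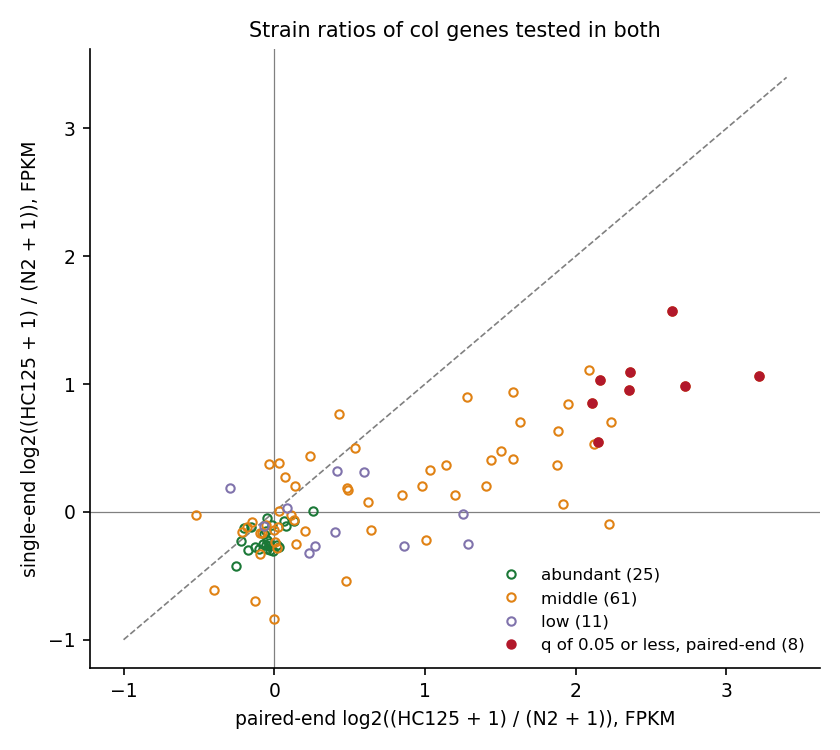
Single-end (vertical) against paired-end (horizontal) log2((HC125 + 1)/(N2 + 1)) of FPKM for the 97 col genes tested in both, coloured by level group, with the paired-end calls filled. The 8 calls lie below the dashed line of equality, at 2.11 to 3.22 on the paired-end axis and 0.55 to 1.57 on the single-end axis. They were chosen by their paired-end values, which by itself favours that side of the line.

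Neighbouring col genes could differ widely in level and ratio. The family lies on all 6 chromosomes, from 12 genes on III to 41 on IV, and 50 of its genes lie within 5000 bp of another, in 21 groups. Chromosome I, with 21 col genes, held none of the abundant genes and 2 of the calls, and chromosome II, with 25, held 4 calls. The share of all genes called on each chromosome was not counted, so these few calls show no link with position. In 6 of the groups an abundant gene sat beside a middle or low one. On chromosome II the minus-strand genes col-17 (4866436 to 4867574), col-20 (4869607 to 4870791) and col-73 (4872098 to 4873127) follow each other, 2032 bp apart on one side of col-20 and 1306 bp on the other. The outer genes were called higher with ratios of 29.6 and 20.8, while col-20 between them was at 2312 against 2241 FPKM, and at 3072 against 2974 FPKM. Positions are those of the tables, counted from 1; their genome build is not given in the sources used here.

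Other neighbours differed in level but had strain ratios in the same direction or near equality. On chromosome V col-146 and col-147, 1259 bp apart on opposite strands, were both higher in HC125 in both tables. The level of col-147 was 20.6 against 28.1 FPKM, and 10.9 against 19.3 FPKM, with p = 0.206 and p = 0.0406 in the authors' deposited tables. On chromosome III col-93 was at 720.9 against 708.5 FPKM with paired-end reads, and its flanking genes col-92 and col-94 were at 33.7 against 33.8 FPKM and 42.4 against 42.3 FPKM. Of these, col-147, col-92 and col-94 are named after their values were seen.

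Calls were also counted by whether a gene shared its listed locus. The tables place 33 of the col genes in a locus shared with at least 1 other gene, and none of the 25 tested among them was called with paired-end reads. All 10 calls came from the 87 tested genes alone at their locus. The shares over all genes of either kind were not counted, here or for the counts below. These few genes do not show a link between the listing and the call. Of the 33 genes with a paired-end ratio of 4 or more, 22 were alone at their locus, and 20 of these had an unadjusted p under 0.05 and 9 a q of 0.05 or less. Of the 11 at a shared locus, 1 had such a p. The median ratio was 10.9 in the first set and 10.5 in the second, while the median implied standard error of the log2 ratio was 1.01 and 3.81. Among the latter, named after their values were seen, col-14 was at 0.905 against 7.97 FPKM and col-90 at 0.122 against 4.24 FPKM. In the authors' deposited paired-end table col-14 had p = 0.300 and col-90 p = 0.282. The part of shared loci in these errors was not tested.

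Other cuticle collagens, known from mutants with an altered body shape or cuticle, had the same paired-end direction. There 5 of 21 were called higher (dpy-5, dpy-13, rol-1, rol-8 and sqt-1), against 0.179% of all tested genes, and none lower. In all, 18 of the 21 were higher in HC125, against 41.7% of all tested genes, with a median log2(FPKM + 1) ratio of 1.00. The level of dpy-5 was 0.739 against 12.3 FPKM, and 0.492 against 1.87 FPKM. For sqt-1 it was 0.269 against 5.39 FPKM, and 0.211 against 0.892 FPKM. With single-end reads none of 19 was called, against 0.122% of all tested genes, and the median was -0.18. In the authors' deposited table, with an unadjusted p under 0.05, 3 of the 19 were higher, against 1.22% of all tested genes, and 4 lower, against 1.16%. The lower ones were dpy-7, dpy-10, dpy-14 and dpy-17, and the first was higher with paired-end reads, at 1.21 against 3.399 FPKM and then 4.19 against 1.99 FPKM. The highest genes of that list were lower in HC125 in both tables without a call, dpy-17 at 8.84 against 6.42 FPKM and then 69.9 against 44.2 FPKM, and dpy-14 at 7.82 against 5.61 FPKM and then 63.3 against 39.6 FPKM.

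The enzymes and chaperones that fold, trim and cross-link collagen held no call in either table. Their medians were -0.04 over 20 tested genes with paired-end and -0.06 over 19 with single-end reads. Over all tested genes 0.212% were called in either direction with paired-end and 0.122% with single-end reads. A list this short would mostly hold no call at these shares. The calreticulin gene crt-1 was at 613.3 against 574.4 FPKM, and at 630.2 against 610.2 FPKM. The prolyl hydroxylase gene dpy-18 was at 13.4 against 13.6 FPKM, and at 16.8 against 16.1 FPKM. The protein disulphide isomerase gene pdi-3 was at 569.6 against 555.1 FPKM, and at 470.8 against 472.7 FPKM.

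Genes of moulting and of the apical matrix had opposite medians in the tables. With paired-end reads 27 of 31 tested were higher in HC125, against 41.7% of all tested genes, and the median was 0.28. Of these, 8 had a p under 0.05, unadjusted, in the authors' deposited table, against 0.926% of all tested genes. With single-end reads 5 of 26 tested were higher, against 40% of all tested genes, and the median was -0.23. Another 5 were lower at that p, against 1.16%. None was called in either table, against 0.212% of all tested genes with paired-end and 0.122% with single-end reads. The summed FPKM of the 36 genes was 95.7 against 119.3, and 123.7 against 97.2. The metalloprotease gene nas-37, needed to shed the old cuticle, was at 19.2 against 20.3 FPKM, and at 5.04 against 4.77 FPKM. The matrix gene noah-2 was at 4.65 against 5.48 FPKM, and at 19.4 against 12.4 FPKM. The part of moulting stage in the ratios of the col genes was not tested.

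A list of epidermal transcription factors and heterochronic genes held no call, against 0.212% of all tested genes with paired-end and 0.122% with single-end reads. Its medians were -0.07 and -0.14 over 16 genes. The heterochronic gene lin-41, which does not encode a transcription factor, was at 152.7 against 130.3 FPKM, and at 72.7 against 65.8 FPKM. The transcription factor gene lin-26 was at 74.7 against 69.7 FPKM, and at 36.1 against 35.2 FPKM. Markers of the epidermis and its seam held no call either, against the same shares. They summed to 365.3 against 367.9 FPKM, and to 244.6 against 234.0 FPKM. The proton pump gene vha-5 of the epidermis was at 95.7 against 102.7 FPKM, and at 31.6 against 32.8 FPKM. Members of this list that are collagens themselves had other values: dpy-7 had a ratio of 2.82 with paired-end and 0.476 with single-end reads, with p = 0.0092 and p = 0.0466 in the authors' deposited tables. For bli-1 the paired-end ratio was 7.26, at 0.184 against 1.34 FPKM, with p = 0.182 in the authors' deposited table. The part of the amount of epidermis in the col ratios was not tested.

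Markers of other tissues and of embryos were set beside these values. Embryonic and hatching genes summed to 248.6 against 244.1 FPKM, and to 223.2 against 237.5 FPKM, with medians of -0.06 over 18 tested genes and -0.01 over 17. Most of each sum was pal-1, at 189.5 against 188.7 FPKM, and at 163.6 against 178.2 FPKM. The hatching gene hch-1 was at 1.00 against 0.744 FPKM, and at 4.69 against 2.46 FPKM. Its single-end p in the authors' deposited table was 0.0125, the only one of the list under 0.05, against 1.16% of all tested genes lower at that p. Oocyte and eggshell genes summed to 7117 against 6556 FPKM, and to 12998 against 12185 FPKM. Muscle genes summed to 3578 against 3351 FPKM, and to 3202 against 3504 FPKM. Of 13 tested in each table, myo-1 and myo-2 were called lower with paired-end reads, against 0.0331% of all tested genes. With single-end reads unc-54 was called higher, against 0.0684% of all tested genes. Glial genes held no call, against 0.212% of all tested genes with paired-end and 0.122% with single-end reads. They summed to 88.9 against 77.6 FPKM, and to 48.3 against 47.6 FPKM. No gene of these lists was listed at 0 throughout. Of 6 yolk genes vit-1 alone was tested with paired-end reads, at 1859 against 1572 FPKM. There vit-2 to vit-6 were flagged as having too many reads and listed at 0, which is not their level. With single-end reads vit-3, vit-4 and vit-5 carried that flag, at 0 in N2 against 1406, 582 and 2169 FPKM in HC125. The part of other tissues in the col ratios was not tested beyond these values.

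**Figure D5:**
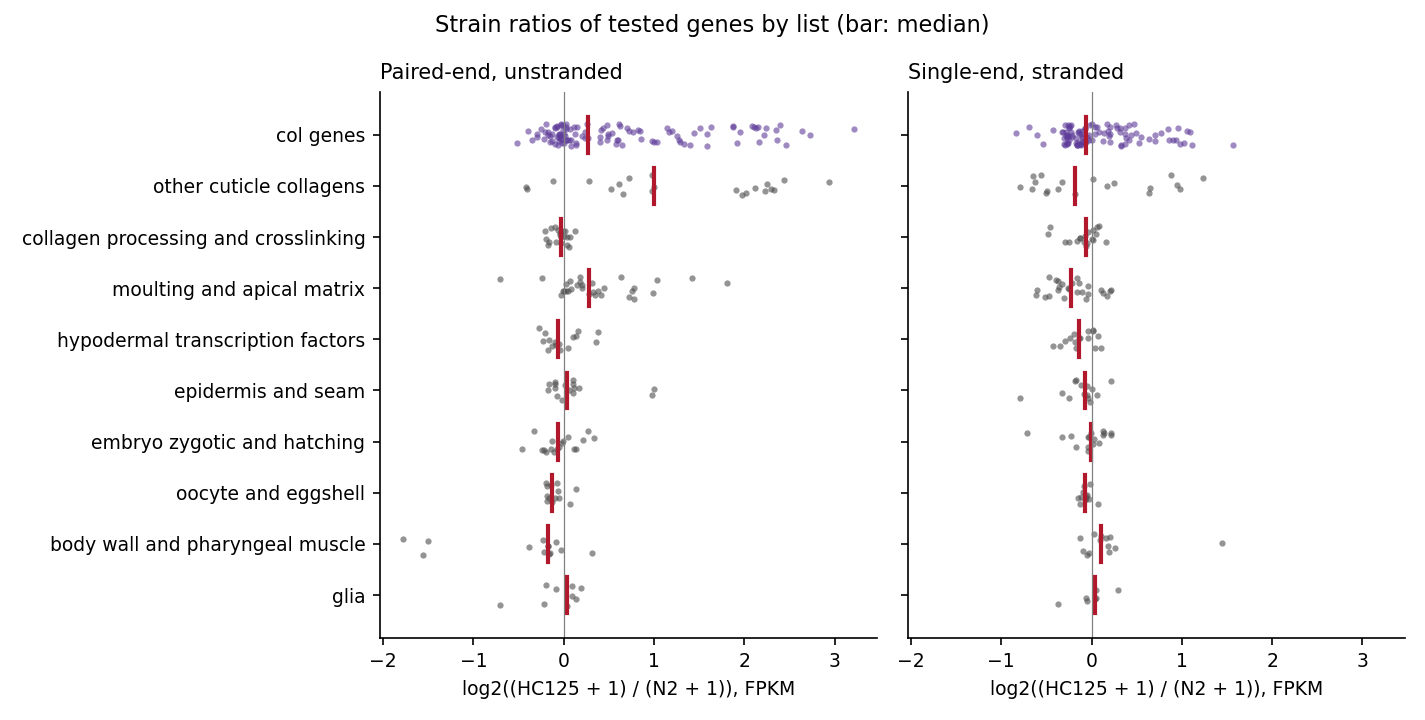
Strain ratio, log2((HC125 + 1)/(N2 + 1)) of FPKM, of each tested gene by list, with the median as a red bar, with paired-end (left) and single-end (right) reads. The medians of the other cuticle collagens (1.00) and of the moulting list (0.28) lie right of 0 in the left panel, and left of 0 in the right panel (-0.18 and -0.23).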

How the data were processed

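TopHat2 2.0.1 and Cufflinks 2.2.1 appear in the submitters' processing notes; settings, build and annotation are not given there. Per the file headers, each table has the layout of Cuffdiff, with the FPKM values the authors pooled over 2 libraries per strain. The authors' test statistic is a score per gene, and the p-value and q-value were deposited with it. With 1 value per strain, no test over libraries could be run. The labels do not say that libraries came from separate cultures, so these p-values measure a spread that may be technical. Implied standard errors are the log2 ratio divided by that score, with intervals from a normal approximation; they need not match the deposited p-values. Ratios are of FPKM, or of FPKM + 1 on the log2 scale, where changes of low genes look smaller. Genes were called at a q of 0.05 or less. Without strand, reads of a gene and of its antisense neighbour cannot be told apart in the paired-end table: 48 col genes overlap a coding gene on the other strand, 12 of them abundant and 1 called. All 157 identifiers are in the WBcel235 annotation on the chromosome listed; starts were raised by 1 to count from 1, after which 8 members had its start and end.

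The genes named are all calls, the 8 most abundant, those with an unadjusted p under 0.05 in both tables, members known from the literature, the 4 abundant ones farthest from equality per table, and from each list its calls or its 2 highest genes, of which the text gives some; others are marked. The members and lists were chosen with earlier results of these data known. The genes dpy-18, dpy-7, dpy-10, bli-1, lin-26, hch-1, vit-1, vit-3, vit-4 and vit-5 are given outside that rule. The z test and the Stouffer combination, which joins the p-values of both tables, were tested on simulated data (Python 3.11.15, SciPy 1.17.1). Sequences and protein comparisons were not used here.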

Additional observations from a re-analysis of the deposited data

How the results depend on the processing

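Depth is unknown and 1 value stands for each strain, so no library could be left out. No paired analysis was possible because the tables carry no replicate columns. At a q of 0.01 or less 0 col genes were called in the paired-end experiment in place of 10, since the smallest q listed is 0.0270. The Stouffer combination of both tables called 11 col genes, all higher, against a background of 0.185%, where the single-end table alone called 0; 8 of them were paired-end calls, and col-97, col-104 and col-109 were added. The paired-end median over tested col genes was 0.26, and became 0.43 with a pseudocount of 0.1 and 0.13 with one of 5. That of tested low genes was 0.59, and became 1.60 and 0.14 with these pseudocounts, 0.84 for members of 1 FPKM or more, 0.82 with groups from the mean level in the other experiment and 0.91 with groups from its N2 level, a grouping chosen after seeing the data. The single-end median of tested low genes was -0.11, and became -0.30 with a pseudocount of 0.1, -0.25 for members of 1 FPKM or more 0.053 with limits of 50 and 2 FPKM and 0.19 with groups from the N2 level. The last pair rests on other members, and the tested low genes are few. All medians of abundant genes stayed below 0, at -0.05 to -0.02 in the paired-end and -0.25 to -0.21 in the single-end experiment. The alternative without near-identical proteins was not run.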
